A study of Mus musculus with 24 samples.

Results

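The livers compared here came from wild-type mice that had all been heat-shocked (HS) and that differed in diet. 3 of them (mice 10, 11 and 12) had eaten chow with the peroxisome proliferator WY-14,643 (WY) and 3 (mice 4, 5 and 6) the same NIH-07 chow without it, and these 6 samples, out of 24 in the whole data set, were taken by their labelled diet, heat treatment and strain. The mice were males of a mixed SV129 and C57BL/6 background, 9 to 12 weeks old. WY was given at 500 ppm for 1 week, HS lasted 40 min at 42 °C, and livers were taken 4 hours after it. RNA of each liver was hybridised to 1 Affymetrix mouse array, and every one of its 12422 probe sets other than the control sets entered the comparison. The other 18 livers gave the remaining combinations of diet and HS, in the same wild-type strain and in PPARα-null mice, which lack a working PPARα gene in the whole body. Each of these 6 groups also held 3 male mice of the same age range. The comparison asks what WY did to liver RNA in animals that met the same heat stress, and the unshocked wild-type mice (WY against control diet) and the heat-shocked PPARα-null mice (WY+HS against HS) are set beside it.

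PPARα is a nuclear receptor of hepatocytes that binds fatty acids and synthetic ligands such as WY. With its partner RXR it sits on direct repeats of a hexamer spaced by a single base, called DR1 elements, and switches on genes that take up, activate and burn fatty acids in peroxisomes, mitochondria and the smooth endoplasmic reticulum. It is also known to hold down genes of plasma proteins made by the liver. HS acts through another factor, HSF1, which binds inverted repeats of the letters GAA, called heat shock elements (HSE), near genes for chaperones, the proteins that fold or refold others. The classical inducible chaperones are the Hsp70 proteins Hspa1a and Hspa1b, and the Hsp40 protein Dnajb1 and the Bag-family protein Bag3 work with them.

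The 250 bases before the start sites of 4 genes are shown because these genes carry the results below. Hspa1a and Hspa1b were the chaperone genes with the highest log2 differences, Hspe1 encodes the mitochondrial co-chaperonin, and Fabp1 encodes the liver fatty acid binding protein. They were read from RefSeq windows of mouse build GRCm38.p6 and lie upstream of the first exon. Capitals mark letters that match an HSE (GAA, TTC and GAA, or TTC, GAA and TTC, each spaced by 2 free bases, which are the same motif read on either strand, with at most 1 mismatch at its 9 fixed letters) in the first 3 stretches and a DR1 element (AGGTCA repeated after 1 free base, on either strand, with at most 2 mismatches at its 12 fixed letters) in the last.
Hspa1a, chr17:34972157-34972406, minus strand: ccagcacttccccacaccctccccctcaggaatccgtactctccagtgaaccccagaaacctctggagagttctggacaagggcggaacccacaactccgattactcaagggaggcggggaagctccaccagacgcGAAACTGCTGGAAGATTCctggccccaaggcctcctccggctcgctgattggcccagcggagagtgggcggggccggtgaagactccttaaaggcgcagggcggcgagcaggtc
Hspa1b, chr17:34959239-34959488, minus strand: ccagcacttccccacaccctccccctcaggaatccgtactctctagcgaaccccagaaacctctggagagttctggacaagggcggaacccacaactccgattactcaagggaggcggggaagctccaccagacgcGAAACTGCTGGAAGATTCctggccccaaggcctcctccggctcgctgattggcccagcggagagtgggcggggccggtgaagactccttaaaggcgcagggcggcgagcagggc
Hspe1, chr1:55087898-55088147, plus strand: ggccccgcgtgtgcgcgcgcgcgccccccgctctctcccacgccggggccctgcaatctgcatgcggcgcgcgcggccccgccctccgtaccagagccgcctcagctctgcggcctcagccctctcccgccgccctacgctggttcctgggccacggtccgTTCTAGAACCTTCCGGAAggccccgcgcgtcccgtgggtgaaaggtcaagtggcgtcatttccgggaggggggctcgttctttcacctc
Fabp1, chr6:71199629-71199878, plus strand: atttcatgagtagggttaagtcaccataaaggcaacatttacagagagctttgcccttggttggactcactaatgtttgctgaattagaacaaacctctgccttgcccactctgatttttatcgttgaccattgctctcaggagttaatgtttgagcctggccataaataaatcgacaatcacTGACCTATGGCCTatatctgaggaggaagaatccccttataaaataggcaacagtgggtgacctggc
In Hspa1a and Hspa1b the capitals run from 114 to 97 bases before the start, as a pair of overlapping matches with 1 mismatch each. In Hspe1 they run from 89 to 72 bases before the start and match without a mismatch, and the stretch overlaps the region before Hspd1, which is read in the other direction (chr1:55087933-55088182, minus strand). The DR1 match of Fabp1 lies from 67 to 55 bases before the start, on the minus strand, with 1 mismatch. The stretches of Hspa1a and Hspa1b were identical at 247 of 250 bases (98.8%), and since the genes are near-identical too, signal of one may reach the probe set of the other, so that their separate values are uncertain.

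An HSE by this rule was present in 8.15% of all 27025 windows (250 bases before to 50 after a start), in 8.62% of the 383 windows of genes that rose, in 9.19% of the 381 windows of genes that fell and in 6.45% of the 5812 windows of genes that did not pass. Of the 13 cytosolic and mitochondrial chaperone genes that rose, 11 had a window and 6 of these held an HSE (Chordc1, Dnaja1, Hspa1a, Hspa1b, Hspd1 and Hspe1), against 12 of 42 over the whole chaperone lists. The 12 include these 6. The 6 are not separate cases, since Hspd1 and Hspe1 share the same element and Hspa1a and Hspa1b are near-identical. A DR1 match was present in 4.4% of all windows, in 5.22% of those of genes that rose, in 6.04% of those that fell and in 3.68% of the others. Of 36 windows of fatty acid genes that rose, 4 held one (Cd36, Fabp1, Plin2 and Slc25a20), against 8 of 57 over the whole fatty acid lists. These matches describe letters and do not show binding.

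Deposited intensities were on different scales (array medians of 15.2 to 40.5) and were brought to a common distribution by quantile normalization. Values under 15.7 were set to that floor, where 42.9% of values lay. A value below is a normalized intensity, which has no absolute unit and cannot be compared between probe sets. Differences are on the log2 scale, WY+HS minus HS, and were tested with limma at an adjusted p below 0.05. Each difference was judged against the spread between mice within groups, pooled over all 8 groups of the 24 mice. The hepatocyte markers summed to 40700 to 42795 in the HS livers and 41802 to 43682 in the WY+HS livers, and of these 11 genes 2 rose (Fabp1 and Apoa1) and 3 fell (Cps1, Ttr and Ass1). Ppara read 306, 181 and 330.4 in the HS livers and 296, 308 and 288 in the WY+HS livers, with no difference that passed (log2 difference 0.17, SE 0.22, adjusted p = 0.921), and 103 to 210.0 in the 12 PPARα-null livers. 2 of the 6 arrays stood apart from their group. HS mouse 5 correlated with mice 4 and 6 at 0.953 and 0.946, against 0.971 between those, and its Ppara value lay inside the range of the PPARα-null livers. Of the heat-responsive genes, its Hsph1 (244) lay inside the range of the unshocked control livers (157 to 251), while its Hsp90aa1 (1496) lay above theirs (491 to 632). WY+HS mouse 10 correlated with mice 11 and 12 at 0.932 and 0.931, against 0.967.

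Between WY+HS and HS, 1203 probe sets passed (9.68% of 12422), 596 higher (4.8%) and 607 lower (4.89%), and 2386 had an unadjusted p below 0.05. Without the scaling the split was 136 higher and 1846 lower, with a shift of -0.53 (log2) in the median of the probe sets above the floor, so that directions below are relative to the bulk of the array. Without HS mouse 5 the count was 1097, of which 923 were shared with the full set in the same direction, and without WY+HS mouse 10 it was 1006, of which 894 were shared. Of the probe sets that rose, 253 did so by at least 2-fold and 81 by at least 4-fold, and 73 started from the floor in all 3 HS livers. Of those that fell, 266 did so by at least 2-fold and 42 by at least 4-fold. The 3 WY+HS livers lay entirely above or below the 3 HS livers in 1148 of the 1203, against 2375 (19.1%) of all probe sets. With the brightest probe set standing for each gene, 944 of 8251 genes passed (11.4%), 471 higher (5.71%) and 473 lower (5.73%), and the counts of each gene list below are read against these shares and a median log2 difference of 0.00 over all genes. In whole liver, fewer cells of a type and less RNA per cell cannot be told apart.

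Genes of fatty acid use lay on the higher side. Of 76 genes on the 5 fatty acid lists, 47 rose and 3 fell. The peroxisomal list, enzymes of very-long-chain fatty acid breakdown and of peroxisome growth, had 11 of 17 genes higher and 0 lower, with a median of 1.12. Ehhadh, the peroxisomal bifunctional enzyme, read 75.8, 116 and 90.2 in the HS livers and 2298, 2359 and 2587 in the WY+HS livers. Every WY+HS liver was far above every HS liver, and the means were 94.1 ± 20.6 (SD, n = 3) and 2415 ± 152 (SD, n = 3) (log2 difference 4.70, SE 0.18, adjusted p = 3.31e-11). Acaa1b and Acaa1a encode the peroxisomal thiolases that release acetyl-CoA. Acaa1b went from 1749.6, 2145 and 1837 to 8767, 8767 and 9080.4 (log2 difference 2.22, SE 0.09, adjusted p = 7.15e-11), values near the top of the array, where 2 mice had the same rank. Acaa1a went from 1198, 1499 and 1103 to 4694, 4636 and 4863 (log2 difference 1.91, SE 0.12, adjusted p = 1.07e-08). Abcd3, a transporter in the peroxisomal membrane, went from 637, 493 and 581 to 1922, 1936 and 2145 (log2 difference 1.82, SE 0.08, adjusted p = 2.58e-10). None of these groups overlapped. Crat, carnitine acetyltransferase, was at the floor in HS mice 4 and 6 and at 91.6 in mouse 5, and read 670.5, 712 and 687 in the WY+HS livers (log2 difference 4.61, SE 0.47, adjusted p = 3.2e-06). Pex11a, a peroxisome division factor, differed by 3.06 (adjusted p = 1.32e-07), and Ech1 and Hsd17b4, further enzymes of the pathway, by 2.17 (adjusted p = 8.46e-08) and 1.12 (adjusted p = 2.1e-07).

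The mitochondrial list (fatty acid oxidation and ketone body synthesis) had 13 of 18 genes higher and 0 lower, with a median of 0.94. Hadhb, a subunit of the trifunctional protein, went from 687, 899 and 739 in the HS livers to 2161, 2048 and 2189.6 in the WY+HS livers, with no overlap (log2 difference 1.47, SE 0.08, adjusted p = 2.86e-09). Acadm, the medium-chain acyl-CoA dehydrogenase, went from 1351, 1136 and 1325 to 3545, 2707 and 2970.2 (log2 difference 1.27, SE 0.09, adjusted p = 2.86e-08). Eci1, which moves double bonds in unsaturated acyl-CoAs, went from 471, 584 and 539 to 2396, 2672 and 2558 (log2 difference 2.26, SE 0.15, adjusted p = 3.04e-08). Etfb, which passes electrons to the respiratory chain, changed the least of these (log2 difference 0.97, SE 0.07, adjusted p = 6.55e-08), yet its groups did not overlap either. Without scaling Acadm and Etfb did not pass (0.61 and 0.32, adjusted p = 0.0583 and 0.354). The carnitine palmitoyltransferases, which carry fatty acids into mitochondria, differed by 0.76 (adjusted p = 0.0305) for Cpt1a and 0.95 (adjusted p = 1.89e-05) for Cpt2. Pdk4, a kinase that restrains glucose oxidation, was at or near the floor in the HS livers (the floor, 42.1 and 19.0) and read 220.3, 438 and 631 in the WY+HS livers (log2 difference 4.08, SE 0.47, adjusted p = 1.24e-05), with a wide spread among the treated mice.

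Of 22 genes for fatty acid uptake, binding and lipid storage, 13 rose and 0 fell (median 1.36). Lpl, lipoprotein lipase, is low in normal adult liver. It was at the floor in HS mice 4 and 6 and at 78.3 in mouse 5, and read 775, 1008 and 733 in the WY+HS livers (log2 difference 4.95, SE 0.54, adjusted p = 7.86e-06). Vnn1, a pantetheinase, went from 65.5, 108 and 47.2 to 1721, 1372 and 1614 (log2 difference 4.50, SE 0.36, adjusted p = 1.71e-07). Fabp4, a fatty acid binding protein typical of adipocytes, went from 21.9, the floor and 16.5 to 234, 328 and 642 (log2 difference 4.36, SE 0.31, adjusted p = 4.28e-08). In all 3 genes the lowest WY+HS liver was far above the highest HS liver. Cd36, a fatty acid transporter, and Cidec, a lipid droplet protein, were at the floor in all HS livers, so that only bounds can be given. Cd36 read 83.4, 82.2 and 77.3 in the WY+HS livers, at least 5.14-fold higher (adjusted p = 5.98e-09), and Cidec 63.2, 57.0 and 75.4, at least 4.11-fold higher (adjusted p = 1.33e-09). Fabp1 was already high with HS (4339, 4115 and 4636) and rose to 7111, 7674 and 6929 (log2 difference 0.73, SE 0.11, adjusted p = 0.000324). Without scaling the difference of Fabp1 was 0.06 and did not pass. The lipid droplet protein Plin2 and the lipases Pnpla2 and Mgll rose by 1.44, 1.62 and 2.57 on the log2 scale (adjusted p = 8.76e-06, 1.68e-06 and 3.26e-06).

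Of the 6 genes of microsomal omega-oxidation, 4 rose and 2 fell. Cyp4a14, a fatty acid omega-hydroxylase, read 229, 1837 and 273 in the HS livers and 4775, 4439.5 and 4694 in the WY+HS livers (log2 difference 3.25, SE 0.70, adjusted p = 0.00523). HS mouse 5 lay between the other HS livers and the treated livers, and it was likewise high for Cyp4a10 (317, 1192 and 353 against 3350.2, 3057 and 3235, log2 difference 2.65, SE 0.66, adjusted p = 0.0141). The call for Cyp4a10 was lost without HS mouse 4 (2.31, adjusted p = 0.0683) and without mouse 6 (2.38, adjusted p = 0.0636). Cyp4a12b, a male-predominant member of the family, went the other way in mouse 5 (1470.0, 116 and 1329.9 in the HS livers, 3503, 3545 and 3622 in the WY+HS livers), and its difference of 2.54 (adjusted p = 0.0155) became 1.35 (adjusted p = 0.00439) without that mouse. Aldh3a2, which oxidises fatty aldehydes, had tight groups (512, 599 and 584 against 4339, 4172 and 4083, log2 difference 2.90, SE 0.33, adjusted p = 1.05e-05). Cyp4f13 and Cyp4b1 fell by 0.98 and 0.56 on the log2 scale (adjusted p = 0.0433 and 0.0452).

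Of 13 acyl-CoA synthetases and thioesterases, 6 rose and 1 fell (median 0.81). Acot1, a cytosolic thioesterase that splits long-chain acyl-CoA, had the highest log2 difference of these. It read 94.2, 109.5 and 106 in the HS livers and 2823, 2610.4 and 3113 in the WY+HS livers, with means of 103 ± 8.05 (SD, n = 3) and 2849 ± 252 (SD, n = 3) (log2 difference 4.79, SE 0.17, adjusted p = 1.1e-11). Acot8, its peroxisomal relative, went from 113, 92.6 and 132 to 407, 434 and 406 (log2 difference 1.90, SE 0.23, adjusted p = 1.72e-05). Acsl5, an acyl-CoA synthetase, and Slc27a4, a fatty acid transport protein, rose by 1.46 and 1.56 on the log2 scale (adjusted p = 2.64e-05 and 0.000239). Slc27a5, which joins bile acids to CoA, was the one that fell (log2 difference -0.49, SE 0.14, adjusted p = 0.0286), a call lost without HS mouse 4, HS mouse 6 or WY+HS mouse 12 (adjusted p = 0.139, 0.12 and 0.13).

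**Figure D1:**
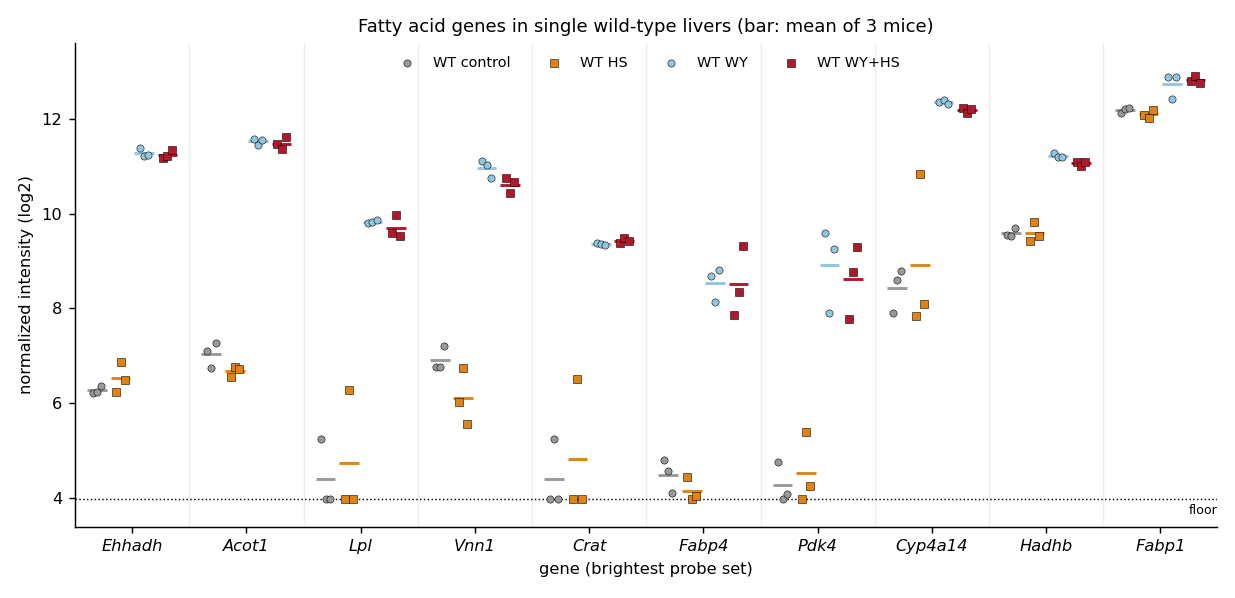
Normalized intensity (log2 axis) of 10 fatty acid genes in each of the 12 wild-type livers, by group (control, HS, WY, WY+HS). Points are single mice, bars are means of 3 mice on the log2 scale and the dotted line is the floor. For Ehhadh and Acot1 the WY+HS livers lie at 2298 or more and the HS livers at 116 or less, and for Cyp4a14 HS mouse 5 stands at 1837, apart from its group.

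Of 18 genes of fatty acid and triglyceride synthesis, 3 rose and 2 fell, with a median of 0.15 that became -0.41 without scaling. Their summed level was 10553 to 15105 in the HS livers and 17458 to 18039 in the WY+HS livers. Me1, malic enzyme, which makes NADPH, went from 218, 89.3 and 221 to 1343, 1496 and 1733 (log2 difference 3.22, SE 0.31, adjusted p = 1.7e-06). Elovl5, a fatty acid elongase, and Pgd, phosphogluconate dehydrogenase, rose by 1.65 and 2.74 on the log2 scale (adjusted p = 7.89e-06 and 0.000248). Thrsp, a lipogenic regulator, fell from 676, 1288 and 622 to 243, 193 and 167 (log2 difference -2.04, SE 0.44, adjusted p = 0.00562), and Acly, ATP citrate lyase, fell by 0.77 on the log2 scale (adjusted p = 0.0499). Of 17 cholesterol synthesis genes, 1 rose, with a median of 0.03 (-0.27 without scaling). This was Hmgcs1, which makes HMG-CoA, at 96.8, 277 and 121 with HS and 340.1, 442 and 269.8 with WY+HS. Mouse 5, the highest HS liver, exceeded the lowest WY+HS value, so that the groups overlapped (log2 difference 1.22, SE 0.34, adjusted p = 0.0301). The call was lost without HS mouse 4 or 6 or WY+HS mouse 10 or 11 (adjusted p = 0.157, 0.119, 0.0742 and 0.114). Without HS, WY against control raised 7 of the same 17 genes (6.73% of all genes rose there) and their median was 1.41, but no cholesterol gene passed the test of the difference between those diet effects. The WY+HS livers differed widely, with summed levels of 4146, 6476 and 2466 in mice 10, 11 and 12. The sums were 2437.5 to 3814 with HS, 5997 to 6458.5 with WY alone and 2394 to 2942 in control livers.

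The inducible Hsp70 genes had the highest log2 differences of all probe sets. Hspa1a was at the floor in all 3 HS livers and read 1899, 3076 and 1531 in the WY+HS livers, at least 132-fold higher (adjusted p = 4.48e-06). It was also at the floor in all control livers and all livers with WY alone. Hspa1b read 79.3, 47.9 and 43.4 with HS and 2764, 3912 and 2271 with WY+HS (log2 difference 5.73, SE 0.83, adjusted p = 0.000153). In unshocked livers it read 24.2, 25.5 and 31.6 on control diet and 137, 129 and 167 with WY. The WY+HS livers were thus far above all other wild-type livers for both genes, with mouse 11 highest and mouse 12 lowest in each. Dnajb1, the co-chaperone of Hsp70, read 29.3, 42.3 and 26.2 with HS and 764, 1266 and 451 with WY+HS, with means of 32.6 ± 8.52 (SD, n = 3) and 827 ± 411 (SD, n = 3) (log2 difference 4.57, SE 0.40, adjusted p = 5.41e-07). Bag3, which links Hsp70 to autophagy, read 129, 126 and 91.3 with HS and 875, 949 and 415 with WY+HS (log2 difference 2.62, SE 0.46, adjusted p = 0.000944). Mouse 11 was again the highest and mouse 12 the lowest of the treated livers. Atf3, a stress-induced transcription factor, followed the same order, with 23.6, 43.1 and 30.9 in the HS livers and 650.3, 925 and 483 in the WY+HS livers (log2 difference 4.39, SE 0.36, adjusted p = 2.37e-07). A second Atf3 probe set was at the floor in every HS liver and read 147, 248 and 91.6 in the WY+HS livers.

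Over the 41 cytosolic chaperones and co-chaperones on the array, 9 rose and 0 fell, with a median of 0.37 that was -0.08 without scaling (0.44 relative to the shift of the array, with 4 genes higher and 1 lower). Besides the genes above, these were Hspa8, the constitutive Hsp70 (665, 570.4 and 406 to 1050.3, 1285 and 961, log2 difference 1.03, SE 0.20, adjusted p = 0.00195), and Hspa4l, an Hsp110 relative (72.2, 56.3 and 78.5 to 188, 164 and 150.3, log2 difference 1.29, SE 0.25, adjusted p = 0.00243). Neither had overlapping groups. Chordc1, an Hsp90 partner, and Dnajb2, an Hsp40 protein, rose by 0.88 and 1.01 on the log2 scale (adjusted p = 0.0028 and 0.0131). Dnaja1, an Hsp40 protein, went from 895, 451 and 818 to 1772, 1425 and 1470.0 (log2 difference 1.16, SE 0.32, adjusted p = 0.0251), and its call was lost without HS mouse 5 (0.86, adjusted p = 0.128) and without WY+HS mouse 10 or 12 (adjusted p = 0.0882 and 0.0513).

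Several other HS-linked genes did not pass by their brightest probe set. Between HS and control wild-type livers, 5 probe sets passed, 4 higher and 1 lower. Hsp90aa1, the inducible Hsp90, read 2345, 1496 and 3039 with HS and 3258, 3594 and 3167 with WY+HS (log2 difference 0.60, SE 0.36, adjusted p = 0.402), against 632, 616 and 491 in control livers. Hsph1, the Hsp110 protein, read 1619.7, 244 and 1362 with HS and 2011, 2169 and 1883 with WY+HS (log2 difference 1.31, SE 0.64, adjusted p = 0.275), with mouse 5 alone near the control level. Stip1, which bridges Hsp70 and Hsp90, read 456, 357 and 472 with HS and 609, 618 and 579.7 with WY+HS (log2 difference 0.50, SE 0.23, adjusted p = 0.238). In each of these the WY+HS livers all lay above the HS livers, without reaching the threshold. Fkbp4, a co-chaperone of steroid receptors, differed by 0.12 (adjusted p = 0.797), and Cacybp by 0.44 (adjusted p = 0.22). The brightest Hspa4 probe set gave 0.13 (adjusted p = 0.629), while another for the same gene passed (log2 difference 1.34, SE 0.28, adjusted p = 0.00349). Acsl4, which activates arachidonic acid, gave 0.15 (adjusted p = 1.0) by its brightest probe set and 0.96 (adjusted p = 0.0022) by another. Hspb1 and Uchl1 lay at the floor in at least 5 of the 6 livers.

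**Figure D2:**
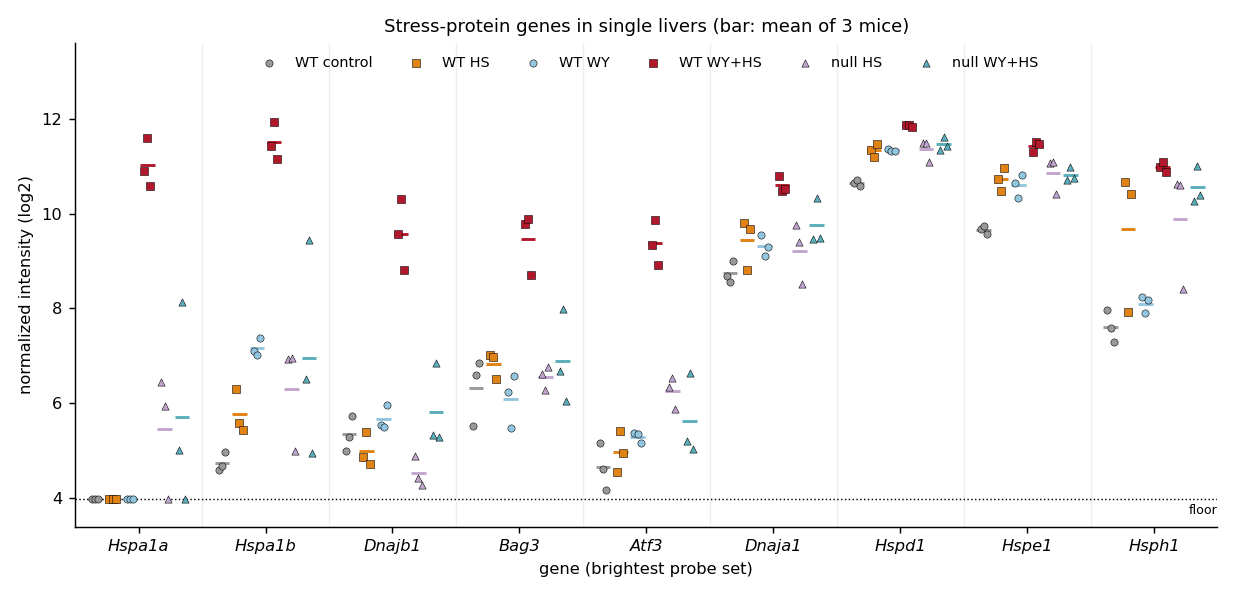
Normalized intensity (log2 axis) of 9 stress genes in livers of 6 groups (wild-type control, HS, WY and WY+HS, then PPARα-null HS and WY+HS). Points are single mice, bars are means of 3 mice on the log2 scale and the dotted line is the floor. The 3 wild-type WY+HS livers (1899, 3076 and 1531 for Hspa1a) stand above all other livers for Hspa1a, Hspa1b, Dnajb1, Bag3 and Atf3, whereas Hsph1 was also high in 2 of the 3 HS livers. Without scaling, the medians of the cytosolic and mitochondrial chaperone lists and the difference of Hspd1 (-0.11) turned sign.

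Mitochondrial chaperones and proteases had 4 of 12 genes higher and 0 lower (median 0.25, -0.24 without scaling, where 0 rose and 3 fell). Hspd1 and Hspe1, the mitochondrial chaperonin and its lid, share the region shown above. Hspd1 went from 2598, 2335 and 2838 to 3727, 3755 and 3649 (log2 difference 0.52, SE 0.10, adjusted p = 0.00258) without overlap, and by -0.11 (adjusted p = 0.871) without scaling. Hspe1 went from 1696, 1420.2 and 1984 to 2531, 2899 and 2823 (log2 difference 0.71, SE 0.18, adjusted p = 0.0165), a call lost without HS mouse 5 or WY+HS mouse 11 or 12 (adjusted p from 0.0509 to 0.0822). Grpel2, a mitochondrial Hsp70 cofactor, differed by 0.93 (adjusted p = 0.040), lost without any one of mice 5, 6, 11 and 12 (adjusted p from 0.0715 to 0.151), and Phb2, a prohibitin, by 0.56 (adjusted p = 0.00406). The list without mouse 5, 11 or 12 held 2 genes that rose. Of 14 subunits of the TCP-1 chaperonin and prefoldin, 1 rose (median 0.17, -0.38 without scaling), namely Cct3 (171, 224 and 126 to 336, 286 and 316, log2 difference 0.88, SE 0.19, adjusted p = 0.00505). Cct4, Cct7 and Cct8 differed by -0.04, 0.28 and 0.22 and did not pass (adjusted p = 1.0, 0.382 and 0.178), though Cct8 did without mouse 5 (0.31, adjusted p = 0.0428).

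Genes of protein folding in the endoplasmic reticulum were mostly lower where they passed. Of 37, 7 fell and 1 rose, which was Atf3 (median -0.32). Xbp1, a transcription factor of the unfolded protein response, went from 703, 567 and 544 to 166, 190.4 and 153 (log2 difference -1.83, SE 0.25, adjusted p = 8.47e-05). Ppib, a prolyl isomerase, went from 587, 644 and 593 to 301, 341 and 336 (log2 difference -0.90, SE 0.06, adjusted p = 5.9e-08), and Dnajc3, an ER co-chaperone, fell by 0.83 on the log2 scale (adjusted p = 0.000484). These groups did not overlap. The ER Hsp70 Hspa5 read 1114, 1404 and 739.8 with HS and 592, 657 and 739 with WY+HS (log2 difference -0.67, SE 0.23, adjusted p = 0.0917), which passed without HS mouse 6 (-0.92, adjusted p = 0.0185), and Hsp90b1 differed by -0.37 (adjusted p = 0.461). Without HS mouse 5 the list held 4 genes that fell, and without WY+HS mouse 10 it held 3.

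Proteasome subunits, which form the barrel and cap of the main protein-degrading machine, had 23 of 41 genes higher and 2 lower, with a median of 0.50 that was -0.08 without scaling (0.44 relative to the shift, with 1 higher and 5 lower). Psmd4, a ubiquitin receptor of the cap, went from 383, 365 and 305 to 1044, 1022 and 1572 (log2 difference 1.77, SE 0.16, adjusted p = 9.13e-07). The barrel subunits Psma5 and Psma7 went from 313, 289 and 291 to 579, 587 and 640.5 (log2 difference 1.02, SE 0.06, adjusted p = 3.33e-09) and from 292, 279 and 267 to 499, 483 and 539.8 (log2 difference 0.86, SE 0.08, adjusted p = 7.95e-07). All had separate groups. The 2 that fell, Psmb8 and Psmb10, are subunits of the immunoproteasome, the form induced by interferon. Psmb8 went from 168, 112 and 123 to 31.3, 43.6 and 35.4 (log2 difference -1.86, SE 0.21, adjusted p = 1.04e-05), and Psmb10 differed by -1.17 (adjusted p = 0.000383).

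Genes of plasma proteins lay on the lower side. Of 63 genes on the lists of acute phase proteins and of complement and coagulation, 42 fell and 0 rose. Acute phase proteins, which the liver secretes in inflammation or holds back during it, had 19 of 29 lower (median -1.10). Saa2, a serum amyloid A protein, read 4269.9, 7111 and 726 in the HS livers and the floor, 61.0 and 120.1 in the WY+HS livers (log2 difference -5.85, SE 1.16, adjusted p = 0.00258). The HS livers spread widely, with mouse 5 highest and mouse 6 lowest, but the lowest of them was above every WY+HS liver. Orm2, an acid glycoprotein, had the same spread (422, 2571 and 80.6 against the floor, 30.6 and the floor, log2 difference -4.50, SE 1.11, adjusted p = 0.0137), and its call was lost without mouse 5 (-3.22, adjusted p = 0.0754). Itih4, an inter-alpha-trypsin inhibitor chain, had tight groups and fell from 2876, 3293 and 2291 to 354, 334 and 316 (log2 difference -3.06, SE 0.13, adjusted p = 7.15e-11). Ahsg, fetuin A, differed less (6185, 6582 and 6067 to 3575, 4055 and 4034, log2 difference -0.69, SE 0.06, adjusted p = 7.95e-07). Serpina3n, a protease inhibitor, and Fgg, a fibrinogen chain, fell by 1.65 and 0.89 on the log2 scale (adjusted p = 9.16e-07 and 1.04e-05).

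Of 34 complement and coagulation genes, 23 fell and 0 rose (median -0.75). Hc, the fifth complement component, went from 1781, 1936 and 1647 to 513, 491 and 564 (log2 difference -1.77, SE 0.08, adjusted p = 2.58e-10). Cfi, complement factor I, went from 1998, 1877 and 1817 to 739, 684 and 707 (log2 difference -1.42, SE 0.08, adjusted p = 2.68e-09). C4bp, the C4 binding protein, went from 1273, 1359 and 1169 to 385, 421 and 470.3 (log2 difference -1.58, SE 0.09, adjusted p = 3.31e-09). Spread within groups was small against these differences and no groups overlapped. The clotting factor F7 went from 486, 631 and 439.9 to 181, 154 and 183 (log2 difference -1.58, SE 0.11, adjusted p = 6.27e-08), and prothrombin, F2, fell from 2056, 1991 and 2026 to 1325, 1159 and 1359 (log2 difference -0.66, SE 0.08, adjusted p = 1.7e-05). Without scaling the medians were -1.66 for the acute phase list and -1.35 for the complement and coagulation list. The shift of the array is downward there, so that a negative median could not turn sign. Relative to that shift they were -1.13 and -0.83.

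**Figure D3:**
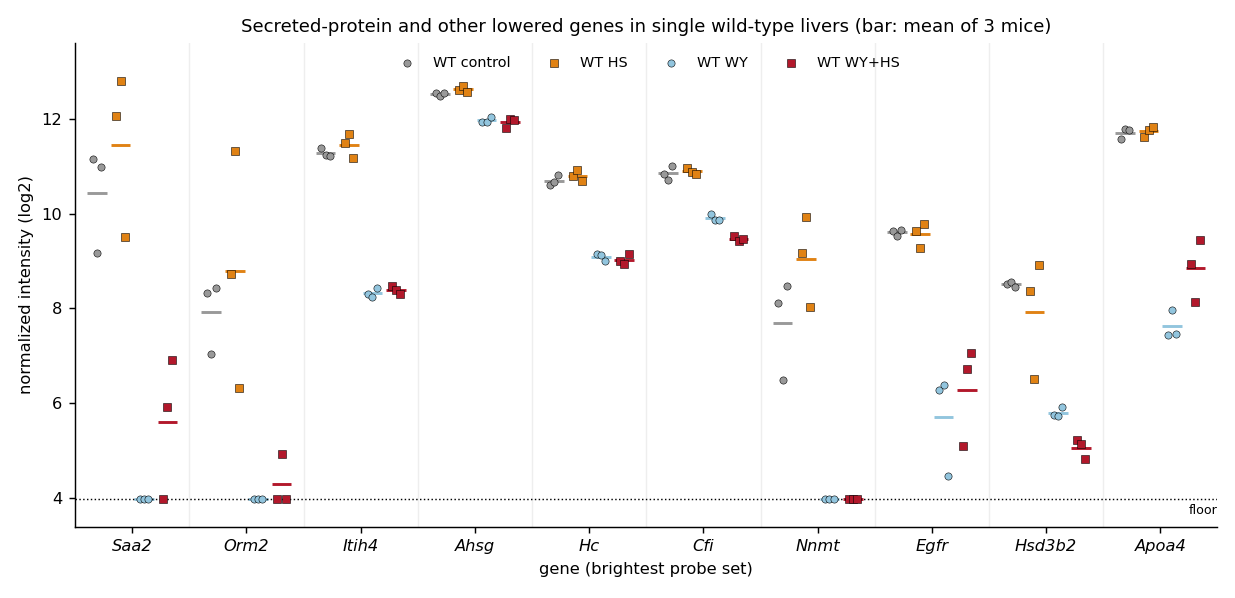
Normalized intensity (log2 axis) of 10 genes that fell with WY among heat-shocked wild-type livers, in the 12 wild-type livers by group. Points are single mice, bars are means of 3 mice on the log2 scale and the dotted line is the floor. Itih4 shows tight groups (2291 to 3293 with HS, 316 to 354 with WY+HS), while Saa2 and Orm2 vary widely among HS livers.

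Several hepatocyte functions had lower genes as well. Male-biased and growth hormone dependent genes had 9 of 21 lower and 0 higher (median -0.26). Egfr, the receptor of epidermal growth factor, fell from 796, 616 and 877 to 34.3, 105 and 133 (log2 difference -3.27, SE 0.47, adjusted p = 0.000144). Igf1, the growth hormone dependent hormone, fell from 1979, 1579 and 2156 to 999.8, 864 and 812 (log2 difference -1.09, SE 0.13, adjusted p = 2.67e-05). Hsd3b2, a steroid dehydrogenase, read 329.8, 91.8 and 483 with HS and 37.7, 35.2 and 28.3 with WY+HS (log2 difference -2.87, SE 0.40, adjusted p = 0.0001). Mouse 5 was the lowest HS liver for all 3 genes but stayed above the WY+HS livers. The male-specific Hsd3b5 was at the floor in mouse 5 and at 522 and 749.8 in mice 4 and 6. Without HS, WY lowered 15 of the same 21 genes (6.14% of all genes fell there), and the difference between these counts was not tested.

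Of 22 xenobiotic cytochrome P450 genes, 7 fell and 1 rose (median -0.38), and 4 fell without HS mouse 4 or 6. Cyp1a2, which oxidises caffeine and aromatic amines, went from 2918, 2795 and 3178 to 392, 794 and 629 (log2 difference -2.35, SE 0.18, adjusted p = 1.37e-07). Cyp2c29 and Cyp3a11 fell by 1.68 and 0.60 on the log2 scale (adjusted p = 0.000253 and 0.00117). Cyp2e1 was the one that rose (0.32, adjusted p = 0.00248). Cyp2c70, which makes muricholic acids, fell from 1654, 2345 and 1929 to 256, 257 and 307 (log2 difference -2.84, SE 0.18, adjusted p = 1.04e-08). Of the 39 glutathione and NRF2-linked genes, 7 rose and 7 fell. Gsr, glutathione reductase, rose from 223, 208 and 185 to 355, 363 and 406 (log2 difference 0.87, SE 0.08, adjusted p = 7.11e-07) and Ephx2, soluble epoxide hydrolase, from 935, 604 and 998 to 2179, 1973 and 2128 (log2 difference 1.34, SE 0.15, adjusted p = 1.21e-05), while the transferases Gstm1 and Gsta4 fell by 0.45 and 2.51 (adjusted p = 2.4e-05 and 0.000832). Without scaling Gsr and Ephx2 did not pass (0.25 and 0.71, adjusted p = 0.622 and 0.0725).

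Among apolipoproteins and lipoprotein enzymes, 2 of 18 rose and 5 fell (median -0.26). Apoa4, carried on chylomicrons and HDL, fell from 3126, 3457 and 3622 to 494, 281 and 699 (log2 difference -2.89, SE 0.23, adjusted p = 1.83e-07). Apom, an HDL protein, fell from 1075, 1676 and 1172 to 344, 422 and 428 (log2 difference -1.70, SE 0.14, adjusted p = 1.71e-07). Pltp, the phospholipid transfer protein, rose from 48.8, 58.2 and 42.8 to 393, 695 and 259 (log2 difference 3.06, SE 0.34, adjusted p = 7.93e-06). Apoa1 sat at the top of the array, where all WY+HS livers had the same tied value, and its rise of 0.17 (adjusted p = 0.00317) became -0.53 (adjusted p = 0.00404) without scaling. The lower count was 3 without mouse 5 and 2 without mouse 12. Of 13 bile acid genes, 1 rose and 3 fell (median 0.23, -0.40 without scaling). Abcb4, which exports phospholipid into bile, rose by 0.95 on the log2 scale (adjusted p = 0.00116), and Slc10a1, the bile acid importer, fell from 2169, 2258 and 2396 to 1299, 1060.0 and 1032 (log2 difference -1.02, SE 0.21, adjusted p = 0.0039).

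Amino acid catabolism and the urea cycle had 12 of 39 genes lower and 1 higher (median -0.26). Otc, a urea cycle enzyme, fell from 1871, 1858 and 2271 to 853, 743 and 691 (log2 difference -1.39, SE 0.09, adjusted p = 2.25e-08), and Cps1 and Ass1, which act beside it, by 0.37 and 0.63 on the log2 scale (adjusted p = 2.6e-05 and 0.00311). Hal and Fah, which break down histidine and tyrosine, fell by 1.27 and 0.45 (adjusted p = 5.7e-06 and 5.91e-07). Genes of energy metabolism that passed were mostly higher. Of 26 genes of the TCA cycle and pyruvate dehydrogenase, 8 rose and 0 fell (median 0.17, -0.35 without scaling, and 5 higher without mouse 4, 6 or 10). Suclg1, a succinyl-CoA ligase subunit, went from 688, 728 and 664 to 1165, 1082 and 1180.0 (log2 difference 0.72, SE 0.07, adjusted p = 8.04e-07). Of 52 oxidative phosphorylation subunits, 14 rose and 0 fell (median 0.21, -0.32 without scaling, where 0 rose and 2 fell). Ndufb3, a complex I subunit, went from 717, 684 and 712 to 1224, 1163 and 1411 (log2 difference 0.84, SE 0.08, adjusted p = 2.06e-06). Gluconeogenesis, glycolysis and fasting genes had 4 of 25 higher, among them Aldoa and Gpd1 (0.48 and 0.68), and 2 lower, among them the glucose transporter Slc2a2 (-1.39, adjusted p = 0.0145). The count of higher genes was 2 without HS mouse 6, and Slc2a2 was lost without mouse 4, 6 or 11 (adjusted p from 0.0512 to 0.0651), as was Gpd1 without mouse 6 (adjusted p = 0.0615).

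Ribosomal proteins gave no call among 30 genes (median 0.08, -0.45 without scaling). Without scaling 5 of them fell, and without HS mouse 5 there were 4 that rose. Rpl32, at -1.29, passed at -1.88 without WY+HS mouse 10 (adjusted p = 0.00812) and at -1.87 without scaling (adjusted p = 0.0318). Of 38 tRNA synthetases and translation factors, 2 rose, Lars and Gars (0.77 and 0.61, the latter lost without mouse 6, adjusted p = 0.0566). Of 52 cell cycle and DNA replication genes, 2 rose, Gadd45b and Cdkn1a, both known as growth-arrest and damage-response genes. Gadd45b was at the floor in all HS livers and read 30.1, 79.7 and 134 with WY+HS, at least 4.35-fold higher (adjusted p = 0.00248). Cdkn1a, p21, read 31.5, 162 and the floor with HS and 149.9, 221 and 212 with WY+HS (log2 difference 2.15, SE 0.61, adjusted p = 0.032). Mouse 5 overlapped the WY+HS livers, and the call was lost without mouse 4, 6, 10, 11 or 12 (adjusted p from 0.0555 to 0.176). The immediate-early and stress list had 4 of 30 higher and 1 lower (median 0.18, -0.24 without scaling), with Atf3, Cdkn1a, Btg1 and Btg2 higher. Btg2 was lost without mouse 5, 11 or 12 (adjusted p from 0.0516 to 0.0757) and Btg1 without mouse 5, 6, 11 or 12 (adjusted p from 0.0515 to 0.108). Without HS mouse 6 the higher count was 2 and without WY+HS mouse 11 it was 1. Of 16 clock genes, 1 fell (Bhlhe40, -1.12, adjusted p = 0.0372, lost at adjusted p from 0.0693 to 0.113 when any 1 of the 6 mice was left out). Of 28 nuclear receptors and hepatocyte transcription factors, 2 fell, Nr2f6 and Nr5a2 (-0.54 and -0.55, adjusted p = 0.00065 and 0.00281).

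Of 43 tubulins and actin cytoskeleton genes, 6 rose and 1 fell (median 0.11, -0.27 without scaling), with 12 higher without HS mouse 5. Anxa2, a membrane-binding annexin, rose from 51.6, 95.7 and 35.6 to 488, 718 and 581 (log2 difference 3.39, SE 0.28, adjusted p = 2.36e-07), and its partner S100a10 by 1.30 (adjusted p = 0.000205). Tubb2a, a beta-tubulin, read 179, 851 and 131 with HS and 868, 1097 and 959 with WY+HS (log2 difference 1.84, SE 0.56, adjusted p = 0.0479). HS mouse 5 lay just under the WY+HS livers, and the call was lost without any one of the other 5 mice (adjusted p from 0.0877 to 0.233). MHC and interferon-linked genes had 5 of 37 lower and 2 higher (median -0.07), with Ccl9, a chemokine, lower (-1.34, adjusted p = 1.59e-05), and 3 lower without HS mouse 4. Aldehyde dehydrogenases and other oxidoreductases had 4 higher and 4 lower of 28 (median 0.06, -0.50 without scaling), and 7 lower without mouse 5. Ces1c, a carboxylesterase, fell from 1048, 1177 and 1239.7 to 324, 172 and 177 (log2 difference -2.42, SE 0.28, adjusted p = 1.11e-05).

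**Figure D4:**
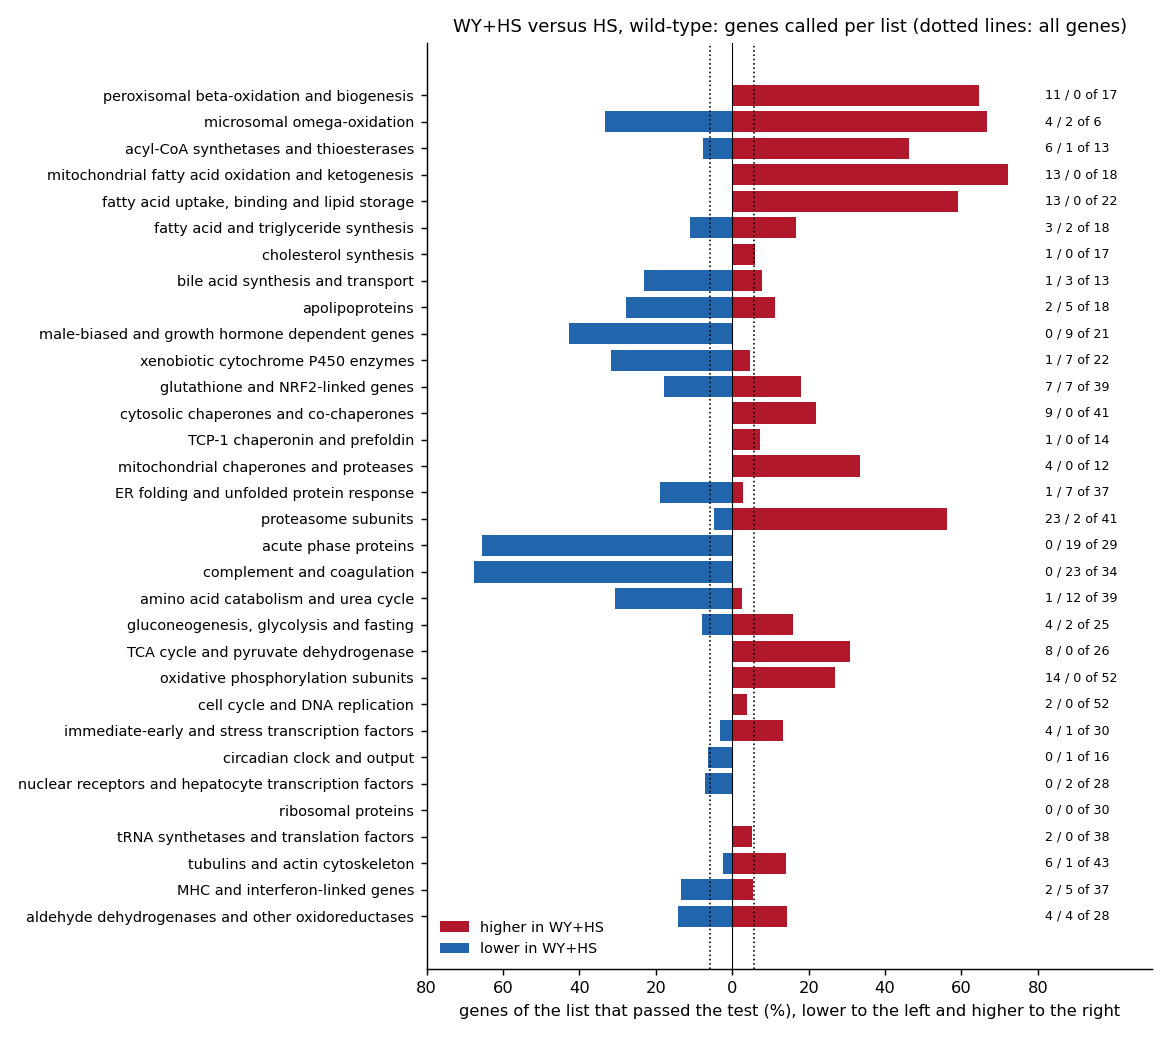
Share (percent) of each of the 32 gene lists that rose (right) or fell (left) with WY among heat-shocked wild-type livers, with the counts higher and lower of the genes on the array at the right edge. Dotted lines mark 5.71% higher and 5.73% lower of all 8251 genes. Fatty acid lists and proteasome subunits reach to the right and acute phase and complement lists to the left. Without scaling, the medians of 15 of the 32 lists turned sign, proteasome subunits and chaperones among them and the 5 lists of fatty acid use not among them. The plasma protein lists did not turn either, but the shift without scaling is downward, so that a negative median could not.

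Outside the lists, Lamb3, a laminin chain, was at the floor in all HS livers and read 269, 287 and 251 with WY+HS, at least 17.1-fold higher (adjusted p = 2.15e-16). Prss8, the serine protease prostasin, was at the floor as well and read 127, 171 and 194, at least 10.3-fold higher (adjusted p = 5.17e-07). Groups that sit on the floor do not vary there, so that such p-values can be too small. Pla2g6, a phospholipase, rose from 23.7, the floor and 36.3 to 255, 279.7 and 210.3 (log2 difference 3.37, SE 0.45, adjusted p = 6.05e-05). On the lower side, Ifitm3, an interferon-induced membrane protein, fell from 1397, 2558 and 1292 to the floor, 47.8 and 49.6 (log2 difference -5.64, SE 0.47, adjusted p = 2.84e-07). Nnmt, which methylates nicotinamide, read 572, 971 and 261 with HS and was at the floor in all WY+HS livers, at least 33.4-fold lower (adjusted p = 0.000109). Sult1a1, a phenol sulfotransferase, read 267, 1109 and 257 with HS and 28.7, the floor and the floor with WY+HS (log2 difference -4.46, SE 0.62, adjusted p = 9.31e-05). Hsd11b1, which regenerates corticosterone, fell from 1671, 1347 and 1781 to 352, 206 and 299 (log2 difference -2.51, SE 0.21, adjusted p = 2.56e-07). Yes1, a kinase, and Tspan4, a tetraspanin, fell by 2.89 and 2.95 on the log2 scale (adjusted p = 3.79e-06 and 0.00514), and Tspan4 by 1.90 without mouse 10. Srxn1, sulfiredoxin, a gene named after its values were seen, had probe sets that passed in opposite directions (-1.01 for the brightest and 2.22 for another). Of genes whose brightest probe set passed with separate groups, 249 had several probe sets. In 61 of these 2 or more passed, and Srxn1 was the one with opposite directions.

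Markers of other liver cells were read in the same arrays. Of 12 Kupffer cell and macrophage markers none passed, with a median of -0.37 and a summed level of 949 to 1266 in the HS livers and 584 to 923 in the WY+HS livers, which did not overlap. Without scaling 4 of the 12 fell. Marco, a defining one, was at the floor. Of 12 endothelial markers 2 fell, Eng (419, 410.1 and 563 to 205, 297 and 180.3, log2 difference -1.05, SE 0.20, adjusted p = 0.00213) and Stab1 (-0.62, adjusted p = 0.0209), with sums of 927 to 1147 and 574 to 799 and with Vwf and Cd34 at the floor. Stab1 was lost without mouse 4, 6 or 10 (adjusted p from 0.0513 to 0.114). Of 12 stellate cell and fibroblast markers 1 fell, Dcn (-0.61, adjusted p = 0.0121, lost without mouse 6, adjusted p = 0.0592), with sums of 1609.9 to 1786 and 1192 to 1716. 4 of 5 cholangiocyte markers and 5 of 10 lymphocyte markers, all Cd3 chains among them, were at the floor, and no marker of lymphocytes, neutrophils, erythroid cells or skeletal muscle passed with all 6 mice. With 1 mouse left out, the lymphocyte gene Cd79b passed without WY+HS mouse 10 (-1.88, adjusted p = 0.000395), the erythroid gene Alas2 without HS mouse 5 (-1.78, adjusted p = 0.000563) and the muscle gene Atp2a1 without HS mouse 6 (-2.05, adjusted p = 0.0146). Atp2a1 also passed without scaling (-1.81, adjusted p = 0.0424). Of 6 exocrine pancreas markers 1 fell, Cela1 (387, 167 and 324 to 70.4, 56.9 and 116, log2 difference -1.83, SE 0.31, adjusted p = 0.000637). Of 6 adipocyte markers 2 rose, Fabp4 and Cidec, which are also on the fatty acid list, with sums of 265 to 285 and 589 to 981 and with Retn at the floor. The part of these cells in the results above was not tested.

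Unshocked wild-type mice on the same diets gave a second WY contrast in other animals. Among them control mouse 1 had a skeletal muscle marker sum of 1264, against 294 and 281 in the other control livers and 264 to 281 with WY. In this unshocked contrast 1339 probe sets passed (10.8%), and 773 passed in the same direction in both, which is 64.3% of the 1203 and 57.7% of the 1339, while 1 passed in opposite directions. Of the 1203, 94.4% had the same sign. Over the 8976 probe sets above the floor in at least 1 wild-type liver, the log2 differences correlated at 0.70, a description only, since probe sets are not independent. Of the 47 fatty acid genes that rose, 43 also rose with WY alone, and of the 42 plasma protein genes that fell, 35 also fell with WY alone. Ehhadh rose by 4.70 after HS and by 5.00 without it, while Itih4 fell by 3.06 after HS and fell by 2.96 without it. Of the 41 cytosolic chaperones, 3 rose and 1 fell with WY alone, where 6.73% of all genes rose and 6.14% fell, and their median was 0.07.

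The difference between these diet effects, the WY by HS interaction, passed for 13 probe sets of 12 genes (0.105%), 7 higher and 6 lower, while 794 had an unadjusted p below 0.05. In 7 of them some group was at the floor. Without scaling the count was 2639, 9 higher and 2630 lower, and it lay between 13 and 29 when one mouse was left out. 4 stress genes were among the higher ones. Hspa1a differed by 7.04 (adjusted p = 0.00563), Dnajb1 by 4.25 (adjusted p = 0.00214) and Atf3 by 3.75 (adjusted p = 0.00245), and these passed without any one of the 12 wild-type mice. With a floor at the 20th percentile of values Hspa1a no longer passed (6.96, adjusted p = 0.0877). With only the arrays of the contrast Dnajb1 (4.30, adjusted p = 0.0628) and Atf3 (3.80, adjusted p = 0.0628) did not pass. For Bag3 the brightest probe set did not pass (2.85, adjusted p = 0.172) and another did (2.85, adjusted p = 0.0331), though not without 9 of those 12 mice in turn. For Hspa1b, whose level was already higher with WY alone, the test gave 3.32 (adjusted p = 0.556). Sat1, which acetylates spermidine, read 371, 358 and 361 in control livers, 345, 290.5 and 284 with HS, 295, 273 and 241 with WY and 474, 569 and 666 with WY+HS, and thus fell with WY alone (-0.44, adjusted p = 0.044) and rose after HS (0.89, adjusted p = 0.000207), with an interaction of 1.32 (adjusted p = 0.00371). That interaction of Sat1 was not called with a common median per array (1.43, adjusted p = 0.0632), without scaling (0.27, adjusted p = 0.669) or with only the arrays of the contrast (1.35, adjusted p = 0.113). Prpf31, a splicing factor, was at or near the floor in all groups but WY+HS (62.5, 65.5 and 53.0, interaction 1.82, adjusted p = 0.000656). Rfxank, which activates MHC class II genes, was the reverse, at 81.7, 99.5 and 83.8 with WY alone and at the floor in all HS and WY+HS livers (interaction -2.39, adjusted p = 8.96e-06). Neither Prpf31 nor Rfxank passed with a floor at the 20th percentile (adjusted p = 0.291 and 0.394) or on an asinh scale with no floor (adjusted p = 0.487 and 0.679). The others were Zfp574, Zcchc7, Mtpn, Plg and a second Tnfrsf1a probe set, of which Mtpn and Plg lost their calls under most omissions.

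**Figure D5:**
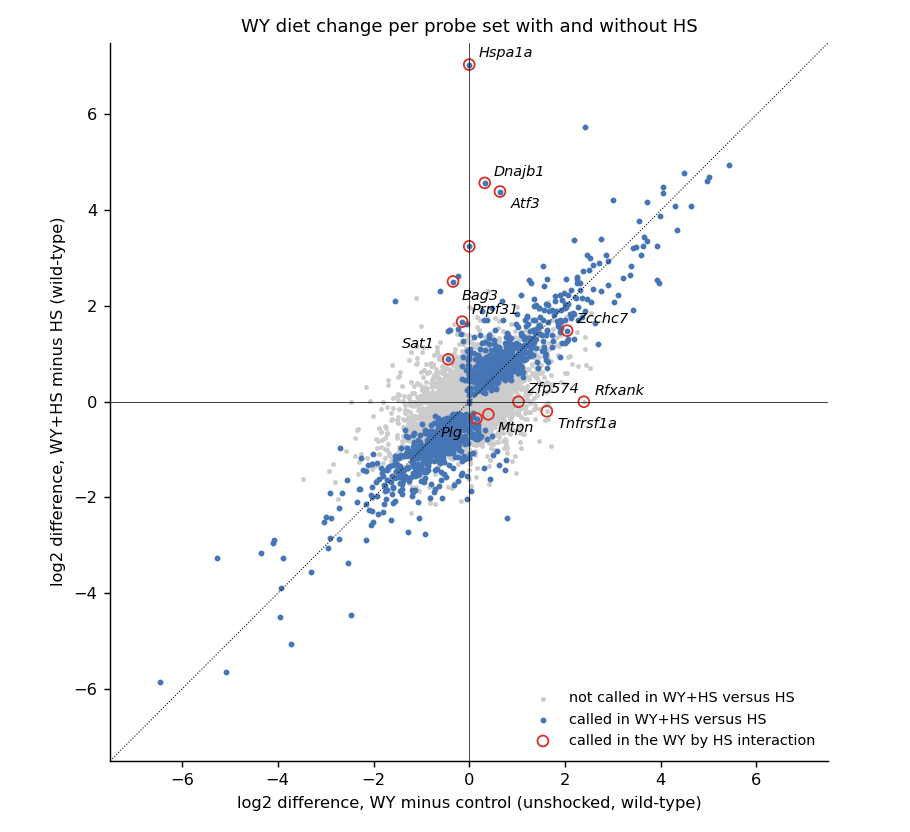
Log2 difference of WY against control diet in unshocked wild-type livers (x) and of WY+HS against HS (y), one point per probe set. Circles mark the 13 probe sets that passed the interaction test, and the diagonal is equal difference. Of the 1203 probe sets called in WY+HS against HS, 94.4% lie where both differences have the same sign, and Hspa1a (0.00 against 7.04), Dnajb1 and Atf3 stand above it.

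Heat-shocked PPARα-null mice on the same diets gave 1391 probe sets that passed (11.2%). Of these, 156 passed in the same direction, 13.0% of the 1203 and 11.2% of the 1391, and 145 in opposite directions to wild-type. Of the 1203, 49.0% had the same sign, and over the 8976 probe sets the log2 differences correlated at -0.02. The null HS livers correlated with null control livers at 0.907 to 0.958, and the null WY+HS livers did so at 0.943 to 0.971. Against null controls, the study counted many more genes altered by HS than by WY alone or by WY+HS, with another test. WY against control in null livers was not tested here. The test of the difference between the strains passed for 1301 probe sets (10.5%), 585 higher and 716 lower (137 and 741 without scaling), among them 37 of the 76 fatty acid genes, against 12.3% of all genes. Of the 1301, 506 passed WY+HS against HS in wild-type livers only and 491 in null livers only. A further 169 passed in both strains and 135 in neither. Ehhadh read 68.6, 50.4 and 52.9 with HS and 76.0, 77.8 and 88.0 with WY+HS in the null livers (strain difference 4.20, adjusted p = 2.08e-08), and Acot1 103, 101 and 105 with HS and 137, 197 and 190.5 with WY+HS (4.04, adjusted p = 1.73e-08). Lamb3 was at the floor in all 6 null livers (4.09, adjusted p = 6.06e-14). For none of these genes did a null liver reach the wild-type WY+HS values. Hspa1a read 87.7, 61.5 and the floor with HS and 32.2, 283 and the floor with WY+HS in null livers (6.79, adjusted p = 0.000331), with mouse 23 the highest. Dnajb1 read 29.6, 21.4 and 19.4 with HS and 40.4, 116 and 39.0 with WY+HS (3.27, adjusted p = 0.000958), and Atf3 80.9, 93.0 and 58.7 with HS and 36.9, 99.9 and 32.7 with WY+HS (5.02, adjusted p = 5.62e-06). Mouse 23 was above the other null WY+HS livers in each of these genes and below every wild-type WY+HS liver. Skeletal muscle markers summed to 1159, 1042 and 253 in the null HS livers and 225, 295 and 254 in the null WY+HS livers. Lymphocyte markers summed to 1701, 1926 and 1884 against 1037, 1041 and 906, and stellate markers to 2289, 2389 and 2928 against 1943, 1958 and 1924. Neutrophil sums were 610, 702 and 696 against 356, 435 and 384. Endothelial sums were 1262, 1345.5 and 1563 against 1235, 1143 and 1105. For erythroid markers they were 2646.5, 2958 and 2257 against 1993, 2139 and 2127. For adipocyte markers they were 308, 358 and 327 against 262, 278 and 279. Cholangiocyte sums were 99.5, 99.5 and 102 against 83.5, 92.3 and 82.3. Hepatocyte, Kupffer cell and exocrine pancreas sums overlapped. The part of such cells in the null calls was not tested.

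By list, the null livers had 3 peroxisomal genes higher and 1 lower, 5 mitochondrial fatty acid genes higher, 2 uptake and storage genes higher and 1 lower, 10 proteasome subunits higher and 4 cytosolic chaperones higher, against 7.03% of all genes higher and 5.61% lower. Acute phase genes were higher in 1 case and lower in 1, and complement and coagulation genes in 4 and 5 cases. Some genes passed in opposite directions. Fabp4 rose by 4.36 in wild-type and fell by 1.23 in null livers (adjusted p = 0.0149). Xbp1 fell by 1.83 and rose by 0.97 (adjusted p = 0.0186), and Hsd11b1 fell by 2.51 and rose by 1.00 (adjusted p = 0.00484). Gsr rose in both strains (0.87 and 0.91), with a strain difference of -0.05 (adjusted p = 1.0).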

How the data were processed

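RNA of 1 liver per mouse was hybridised to 1 Affymetrix U74Av2 array, 24 in all. The intensity values the authors deposited were linear, and 24.1% lay at or below 0, from which a subtraction of background or mismatch signal was inferred. Their arrays were not on a common scale. The study's methods name Affymetrix GeneChip Operating Software for the raw array files and Rosetta Resolver for their analysis, but which of them made the deposited values, and how probe pairs were summarised, is not stated in the sources used here. The labels differ from the study's methods on RNA amount and on temperature and time of sacrifice. The study places the array livers at 4 hours, and its temperature is the one given above.

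Arrays were quantile-normalized over all 24, floored at 15.7 (the size of the 10th percentile) and log2-transformed. limma 3.58.1 (R 4.3.3) fitted 8 group means (16 residual degrees of freedom), with Benjamini-Hochberg adjustment over 12422 probe sets and a threshold of 0.05. The methods' test (an F test over groups, adjusted, then Scheffé's comparison) was an alternative. 3822 probe sets were at the floor on all 6 arrays and remained in the test. The precision is limited by 3 mice per group. GEO's platform annotation gave 10833 probe sets 1 symbol, 396 several and 1193 none, and 10817 were found in RefSeq (GRCm38.p6). 929 of 1221 list genes were on the array.

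Named genes were Ppara, chaperone genes the study names, the 15 highest rises and 15 largest falls with 1 symbol and separate groups, up to 4 members of each list by adjusted p, and the strongest interactions. Acly, Chordc1, Cpt1a, Cpt2, Cyp2e1, Cyp4b1, Cyp4f13, Dnajb2, Ech1, Hsd17b4, Hsd3b5, Hspa8, Hspb1, Mgll, Mtpn, Pex11a, Plg, Plin2, Pnpla2, Psmb10, Srxn1 and Tnfrsf1a fell outside that rule and were chosen after their values were seen, as was the mismatch allowed in the HSE. The members and gene lists were chosen with earlier results of these data known. The scripts were tested on simulated data. Alternatives were other scalings, floors, a log-like scale, array weights, filters, thresholds, the arrays of each contrast alone and each mouse left out.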

Additional observations from a re-analysis of the deposited data

Results flagged for a closer look

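The diet effect differed between heat-shocked and unshocked wild-type livers, by an interaction test in limma, for 13 probe sets, and between wild-type and PPARα-null heat-shocked livers for 1301. With HS the WY effect was higher by 7.04 (log2) for Hspa1a, 4.25 for Dnajb1, 3.75 for Atf3, 1.82 for Prpf31 and 1.32 for Sat1, and differed by -2.39 for Rfxank, -1.03 for Zfp574 and -0.56 for Zcchc7. Zfp574 no longer passed with a floor at the 5th percentile (-0.089, adjusted p = 1), on an asinh scale with no floor (adjusted p = 0.261) or with only the arrays of the contrast (adjusted p = 0.203). Zcchc7 no longer passed with a common median per array (adjusted p = 0.0653), a floor at the 20th percentile (adjusted p = 0.635), the asinh scale (adjusted p = 0.538), a variance trend with robust moderation (adjusted p = 0.337), the filter on low means (adjusted p = 0.158) or only the arrays of the contrast (adjusted p = 0.407). Zfp574 read the floor in all 3 mice in control livers, 40.9, 27.6 and 29.4 with WY, the floor in all 3 mice with HS and the floor in all 3 mice with WY+HS. Zcchc7 read the floor in all 3 mice, 64.5, 66.3 and 64.1, the floor, 18.0 and the floor and 42.1, 43.4 and 53.5 in the same groups.

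Between the strains, the WY effect after HS differed (wild-type minus null) by 4.20 for Ehhadh, 4.04 for Acot1, 4.09 for Lamb3, 1.48 for Zcchc7, 1.501 for Ccr2, 1.37 for Pglyrp1, 2.77 for S100a6 and 2.93 for Usp48. For Ccr2, Pglyrp1 and S100a6 the wild-type differences were 0.00, 0.02 and 0.00 and those in null livers -1.501, -1.35 and -2.77. These genes lay at or near the floor in the wild-type livers compared, so that a fall could not be seen there. S100a6, a calcium-binding protein, read 105, 112 and 112 with HS and 16.9, the floor and the floor with WY+HS in null livers. Usp48, a deubiquitinase, differed by 1.32 in wild-type and -1.61 in null livers. Groups of 3 mice were too small for a test of single samples that stand apart.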

How the results depend on the processing

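The 1203 probe sets that passed in WY+HS against HS became 1982 without scaling, 732 at an adjusted p below 0.01, 690 by the methods' test and 418 with only the arrays of the contrast (365 of them shared, in the same direction), and 966 to 1097 with one mouse left out. The 773 that also passed with WY alone became 227 without scaling, 488 at an adjusted p below 0.01, 458 by the methods' test, 257 with only the arrays of the contrasts, and 634 to 784 with one mouse left out. The 156 that also passed in PPARα-null mice became 102 with a common median per array, 22 without scaling, 58 at an adjusted p below 0.01, 65 at a fold of at least 1.5, 48 by the methods' test, 8 with only the arrays of the contrasts, and 95 to 165 with one mouse left out (95 without null mouse 17 or 24). The 13 of the WY by HS interaction became 2639 without scaling, 21 with a floor at the 5th percentile, 32 with array weights, 3 with only the arrays of the contrast, and 13 to 29 with one mouse left out (29 without WY+HS mouse 12, 25 without WY mouse 8, 24 and 22 without WY+HS mice 10 and 11 and 20 without control mouse 3). The 1301 of the WY by genotype interaction became 741 at an adjusted p below 0.01 and 1040 to 1560 with one mouse left out. The cause of these changes was not tested.

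Of the 173 genes chosen by the rule, 21 changed sign without scaling, where the median of all probe sets was -0.21 (log2): Apoa1 at -0.53, Hspd1 at -0.11, Aldoa at -0.029, Mdh2 at -0.0074, Cox5b at -0.20, Ndufb10 at -0.13, Cox6a1 at -0.14, Gars at -0.012, H2-Q10 at -0.25, Cftr at -0.38, Hba-a1 at -0.34, Ppara at -0.44, Hsp90aa1 at -0.028, Hspa4 at -0.49, Stip1 at -0.083, Fkbp4 at -0.42, Cacybp at -0.17, Acsl4 at -0.47, Cct7 at -0.35, Cct8 at -0.42 and Sgta at -0.19. Without scaling 40 that had passed no longer did, 9 of those 21 among them, 6 newly passed, and Apoa1 passed in the opposite direction. With only the arrays of the contrast 55 no longer passed and none changed sign. Genes that had not passed changed sign elsewhere too. Cftr was -0.015 with a floor at the 20th percentile, -0.26 with array weights and -0.49 to 0.51 with one mouse left out, where Hba-a1 ran from -0.14 to 0.59, Ppara from -0.098 to 0.34, Acsl4 from -0.024 to 0.32 and Cct4 from -0.15 to 0.051. The counts of each gene list under these alternatives were added after seeing the data. With 3 mice per group and 42.9% of values at the floor, changes of genes near the floor are the least certain. No paired analysis was possible because no mouse appears in more than 1 group and the mouse numbers run on across groups.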
